A study of Mus musculus with 12 samples.

Results

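The 7 transcripts Eomes, Tbr1, Tbx20, Satb1, Foxp1, Foxp2 and Opn4, which mark or specify subtypes of retinal ganglion cells (RGCs), were followed in newborn mouse retinas with and without a floxed Ezh2 and Math5-Cre. They were taken by gene symbol, 7 of the 38720 genes listed in each of the 2 deposited tables, and all 7 passed the filter on low values in both cell fractions. RGCs are the output neurons of the retina and fall into many subtypes that differ in shape, light response and target in the brain. Transcription factors expressed in subsets of postmitotic RGCs help to set these subtypes. Eomes (Tbr2) is a T-box factor needed for the intrinsically photosensitive RGCs, which carry the photopigment melanopsin encoded by Opn4, and Tbx20 is another T-box factor found in some of these cells. Tbr1, a close relative of Eomes, shapes the dendrites of other RGC subtypes, Satb1 is a chromatin organiser known in direction-selective RGCs, and the forkhead factors Foxp1 and Foxp2 mark the small F-type RGCs.

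The mice were labelled C57/BL6 and were at postnatal day 0. One genotype, called mKO, carried Math5-Cre, a Cre recombinase placed in the locus of the RGC competence factor Math5 (Atoh7), together with Ezh2 f/f alleles, in which loxP sites flank exons 16 to 19 that encode the SET domain. Ezh2 is the methyltransferase of the polycomb repressive complex PRC2. The other genotype was labelled wild type (WT). Retinal cells of each genotype were split with magnetic beads against CD90 (Thy-1) into an RGC fraction and a non-RGC fraction, and each of the 4 groups had 3 libraries from separate RNA extractions, 12 in all. By the study's own account Cre acts in only part of the RGCs, so the mKO RGC fraction mixes recombined and unrecombined cells. In such bulk samples fewer cells of a subtype and less RNA per cell cannot be told apart.

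The deposited values are group means, from which the reads of each library were recovered. The libraries of a group carry no replicate number and are lettered A to C from the deepest to the shallowest. Reads on genes numbered 12391602 to 13014004 in the mKO RGC libraries, 10600964 to 12328717 in the WT RGC libraries, 7139633 to 12828281 in the mKO non-RGC libraries and 11100177 to 12157900 in the WT non-RGC libraries. Normalized reads are reads divided by the size factor of the library. A gene was called where limma gave a Benjamini-Hochberg adjusted p-value under 0.05 over all genes tested in that fraction, and fold changes are mKO relative to WT.

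Some features of the libraries move with the values below. Ezh2 was not lower in mKO RGCs, with 1354, 1476 and 1443 normalized reads against 1190, 1206 and 1678 in WT (log2 fold change 0.087 ± 0.13 SE, adjusted p = 0.637). Counts over the whole gene cannot show the loss of exons 16 to 19, so this checks the genotype label only in part. The study reported much less Ezh2 in newborn mKO RGCs by Western blot and qPCR. Its text also describes a weaker signal of the histone mark H3K27me3 in the ganglion cell layer. It describes Ezh2 as down-regulated in the RNA-seq too, which the counts here do not show. WT RGC library C stood apart from WT libraries A and B: 10 progenitor markers summed to 24806 normalized reads in it, against 14940 and 15816 in A and B and 14238 to 15310 in mKO RGCs. The 12 general RGC markers summed to 24674 to 25779 in mKO RGCs and 33301 to 36478 in WT RGCs, but to 6089 to 8260 in mKO non-RGCs and 5680 to 6008 in WT non-RGCs, and 10 of them were called lower in mKO RGCs, beside 21.2% of all genes, and 8 higher in mKO non-RGCs, beside 4.18% of all genes. These counts were 8 in RGCs and 5 in non-RGCs with the GC trend removed, beside 9.31% and 1.06% of all genes. With the combined trend removed they were 3 and 5, beside 4.74% and 0.959% of all genes. Of 10 amacrine and 10 photoreceptor markers, 5 each were also called lower in mKO RGCs, with sums of 11989 to 12769 against 15167 to 16534 and 6771 to 7233 against 8191 to 11661 normalized reads. The highest of these photoreceptor sums was that of WT library C. Removing the GC trend left 4 amacrine and 2 photoreceptor markers called lower, and removing the combined trend 3 and 2. In that last setting 1 photoreceptor marker was called higher, beside 2.53% of all genes. Of the 10 progenitor markers 4 were called lower, and none with either trend removed. Fold changes also moved with the GC content of the exons. Among 451 genes within 1 percentage point of the GC content of Foxp2 the median log2 fold change in RGCs was 0.44, and among 1203 genes around that of Opn4 it was -0.34. The part of these features in the results was not tested. Where they change a result, it is also given with the GC trend of each library removed, with the combined trend in GC content and read density (reads per exon base) removed, or without WT RGC library C.

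The genes lie on mouse chromosomes 2, 6, 9, 14 and 17 (mm10, GENCODE M21), and all are protein-coding. Eomes is at chr9:118478212-118486132 on the plus strand and Tbx20 at chr9:24718138-24774303 on the minus strand. Foxp1 is at chr6:98925338-99522721 on the minus strand and Foxp2 at chr6:14901349-15441977 on the plus strand. Tbr1 is at chr2:61802930-61814114 on the plus strand, Satb1 at chr17:51736187-51833290 on the minus strand and Opn4 at chr14:34590618-34600142 on the minus strand. The exon GC content ran from 38.8% in Foxp2 over 41.7% in Tbx20, 44.0% in Satb1, 47.2% in Foxp1, 51.1% in Tbr1 and 52.7% in Eomes to 55.4% in Opn4.

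PRC2 is known to act mainly at promoters rich in CG dinucleotides. The 250 bases before the annotated start are therefore shown for melanopsin and for Eomes and Tbx20, the T-box factors linked with melanopsin cells, as windows that overlap no annotated exon. The sequences are from RefSeq on GRCm38.p6, read 5′ to 3′ on the strand of the gene with CG dinucleotides in capitals, at chr14:34600143-34600392 (minus strand) for Opn4, chr9:118477939-118478188 (plus strand) for Eomes and chr9:24774304-24774553 (minus strand) for Tbx20.
Opn4: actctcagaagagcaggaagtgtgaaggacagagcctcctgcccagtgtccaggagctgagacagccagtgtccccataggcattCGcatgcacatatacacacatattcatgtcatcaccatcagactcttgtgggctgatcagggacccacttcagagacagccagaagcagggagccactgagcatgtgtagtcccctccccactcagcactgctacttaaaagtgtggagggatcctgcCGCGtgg
Eomes: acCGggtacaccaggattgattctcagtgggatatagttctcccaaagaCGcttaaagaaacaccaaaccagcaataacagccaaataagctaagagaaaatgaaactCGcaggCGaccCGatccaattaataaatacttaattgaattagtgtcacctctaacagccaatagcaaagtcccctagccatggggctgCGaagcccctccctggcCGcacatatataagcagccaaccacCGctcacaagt
Tbx20: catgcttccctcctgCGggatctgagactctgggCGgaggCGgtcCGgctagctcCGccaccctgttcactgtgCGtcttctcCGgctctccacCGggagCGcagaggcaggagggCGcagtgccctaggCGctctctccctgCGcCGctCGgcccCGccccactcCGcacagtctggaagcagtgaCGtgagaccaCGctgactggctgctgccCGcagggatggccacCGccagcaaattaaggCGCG
The window of Opn4 held 3 CG dinucleotides, that of Eomes 8 and that of Tbx20 22, against a median of 6 over the 32851 RefSeq promoters of the same length. Thus 29.0% of all promoters held fewer than Opn4, 57.0% fewer than Eomes and 85.2% fewer than Tbx20. Of the 7 genes, 6 had at least 1 entry in the promoter table, Foxp2 being the exception, and Foxp1 and Satb1 had 3 and 5 starts. The windows of Foxp1 held 3 to 34 CG dinucleotides, those of Satb1 3 to 41 and that of Tbr1 5. All of these overlap annotated exons in part or in full.

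Short motifs were searched on both strands of these windows, namely TAATTA (a homeodomain core, found in 4.84% of all promoters), AGGTGT (a T-box core, in 11.8%) and TGTTTAC (a forkhead core, in 3.17%). TAATTA occurred at 2 places in the window of Tbr1, 33 and 18 bases before the start, and once over the 3 windows of Foxp1. AGGTGT occurred once, over the 5 windows of Satb1. The windows of Opn4, Eomes and Tbx20 held none of these letters.

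Levels were compared between genes on a scale per length, as RPKM, reads per kilobase of exon scaled to a common library total. In WT RGCs Eomes was at 32.7 ± 4.62 RPKM (SD, n = 3) and Opn4 at 27.2 ± 7.08, and their libraries overlapped. Satb1 followed at 12.2 ± 0.743 RPKM, below every library of Opn4 and above every library of Tbr1 (8.11 ± 2.29). Foxp1 (6.74 ± 0.848), Tbx20 (6.23 ± 2.46) and Foxp2 (3.25 ± 0.428) came last, and from Tbr1 on each gene overlapped with the next. In mKO RGCs the order was Eomes (29.1 ± 0.952 RPKM), Opn4 (19.7 ± 0.749), Satb1 (13.03 ± 0.353), Foxp1 (10.04 ± 0.402), Tbr1 (9.30 ± 0.301), Tbx20 (7.61 ± 0.147) and Foxp2 (6.85 ± 0.117), and no neighbours overlapped. Eomes was also the highest in non-RGCs, at 15.5 RPKM in mKO and 12.9 in WT, and Tbr1 the lowest, at 0.406 and 0.279, overlapping with Tbx20. The order depended on the length used. Per kilobase of the longest transcript Foxp2 was above Tbr1 and Tbx20 in mKO RGCs, with no overlap (16.6 against 12.8 and 10.04 RPKM). Satb1 was then the highest in both non-RGC groups and in mKO RGCs (39.7 RPKM) and overlapped with Opn4 in WT RGCs (37.0 against 37.4).

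**Figure D1:**
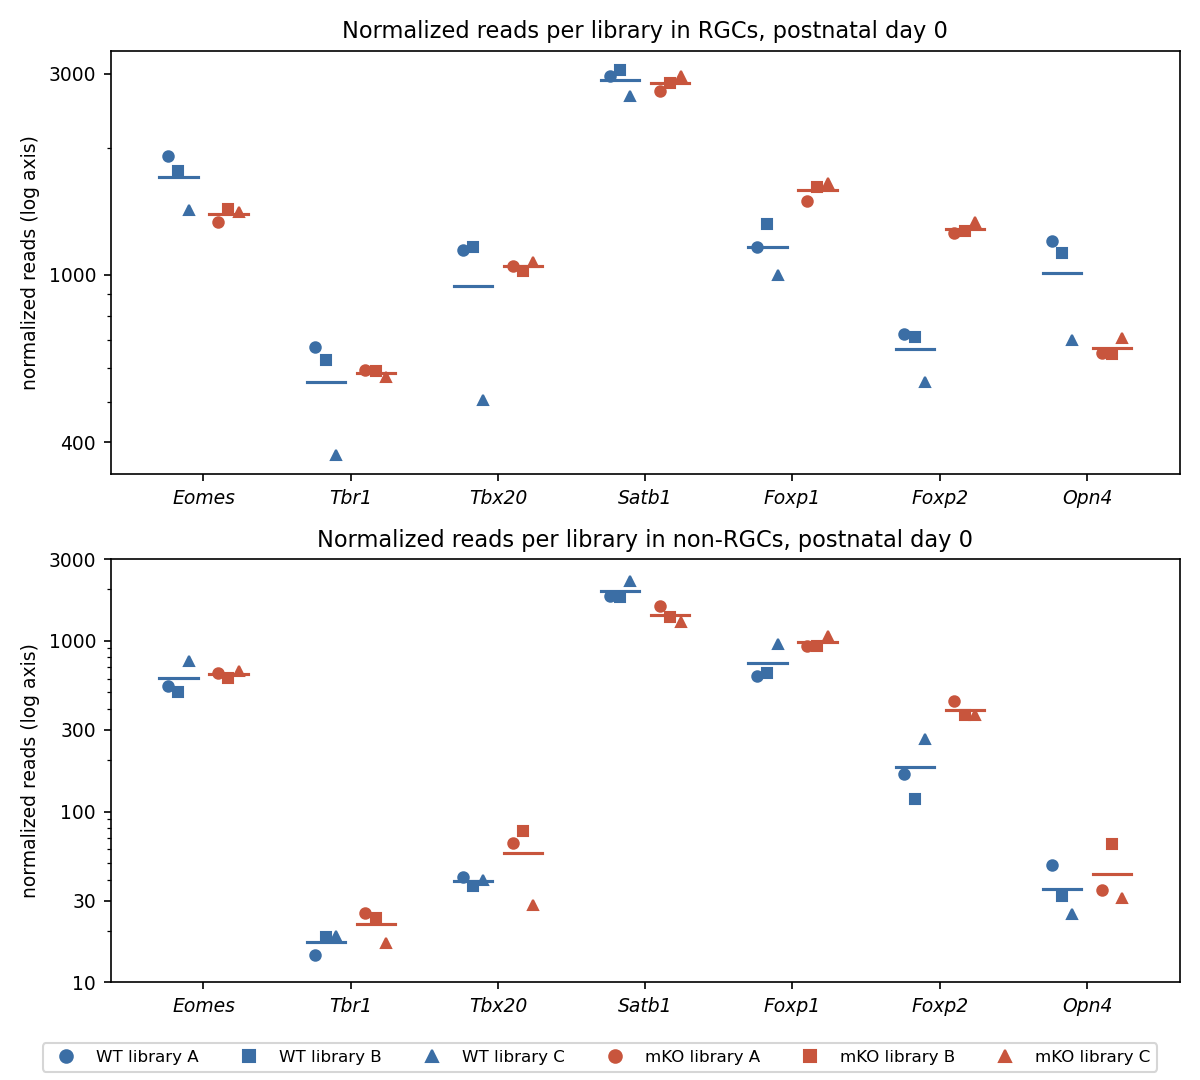
Normalized reads on a log axis for each of the 7 genes in RGCs (top) and non-RGCs (bottom). Each point is a library (circle A, square B, triangle C), blue for WT and red for mKO, and each line is the mean of 3 libraries. Foxp2 is higher in every mKO library than in every WT library in both fractions, and WT RGC library C is the lowest of the 6 RGC libraries for Tbr1, Tbx20, Satb1, Foxp1 and Foxp2.

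Between the genotypes, 2 of the 7 genes were called in RGCs, Foxp2 and Foxp1, both higher in mKO, and none was called lower. Calls were common in this comparison, since 37.5% of the 16085 genes tested were called, 16.3% higher and 21.2% lower (2622 and 3405 genes, or 3857 and 2238 when libraries were scaled by their totals). The median log2 fold change was 0.12 over the 7 genes and -0.0024 over all genes tested. Where a fold change of at least 1.5 was also required, Foxp2 was the only one of the 7 still called, beside 7.91% of all genes called higher and 13.4% in either direction. With the GC trend removed Foxp2 and Foxp1 were still called, beside 5.29% of all genes called higher and 9.31% lower. With the combined trend removed none of the 7 was called, beside 7.27% of all genes, 2.53% being higher and 4.74% lower. Without WT library C calls were more common, at 8184 of 16125 genes tested (3730 higher and 4454 lower). With the GC trend removed as well 5069 were called (2284 higher and 2785 lower), and with the combined trend 3873 (1730 and 2143).

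Foxp2, a forkhead repressor, had 1256, 1272 and 1331 normalized reads in mKO RGC libraries A, B and C and 725, 712 and 558 in the WT libraries. All mKO libraries lay above all WT libraries, as for 24.8% of all genes tested, while 53.0% of genes did not overlap in either direction. The difference was 1.95-fold (log2 fold change 0.96 ± 0.11 SE, adjusted p = 0.000958, limma). Genes of like GC content had a median of 0.44 with 5th and 95th percentiles of -0.16 and 0.96, and Foxp2 was 0.52 above that median. The difference was 0.50 with the GC trend removed (adjusted p = 0.0305) and 0.37 with the combined trend removed (adjusted p = 0.112), where it was no longer called. With the combined trend removed and without WT library C it was 0.23 (adjusted p = 0.0140).

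Foxp1, the related forkhead factor, had 1496, 1618 and 1648 normalized reads in mKO RGCs and 1163, 1319 and 1000.1 in WT RGCs. Here too no mKO library overlapped with a WT library. The difference was 1.37-fold (log2 fold change 0.46 ± 0.10 SE, adjusted p = 0.0130, limma), and Foxp1 lay 0.39 above the median of genes of like GC content. It was 0.40 with the GC trend removed (adjusted p = 0.0481) and 0.35 with the combined trend removed (adjusted p = 0.103). The call was also lost without mKO library B (adjusted p = 0.0522) or mKO library C (adjusted p = 0.0557). Foxp1 was at 0.26 (adjusted p = 0.0381, limma) with the combined trend removed and without WT library C, beside 1730 of 16125 genes called higher.

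Opn4 had 652, 648 and 709 normalized reads in mKO RGCs and 1200.1, 1127 and 701 in WT RGCs. WT libraries A and B were above all mKO libraries, whereas WT library C was within the mKO range. The log2 fold change was -0.55 ± 0.19 SE (95% CI -1.01 to -0.10, adjusted p = 0.0599, limma), which did not pass the threshold. Without WT library C, which held the most progenitor transcripts, it was -0.80 (adjusted p = 6.73e-05). It was -0.23 with the GC trend removed (adjusted p = 0.501) and -0.16 with the combined trend removed (adjusted p = 0.683), against -0.49 (adjusted p = 0.00143) and -0.42 (adjusted p = 0.00447) where WT library C was left out as well. Without any other single library it was not called, at -0.41 to -0.60 (adjusted p from 0.118 to 0.158, limma). Opn4 thus passed the threshold only in settings without WT library C, where calls were common, as given above.

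Eomes had 1331, 1433 and 1408 normalized reads in mKO RGCs and 1918, 1758 and 1427 in WT RGCs. As for Opn4, WT libraries A and B were above the mKO libraries and WT library C was among them. The log2 fold change was -0.28 ± 0.11 SE (95% CI -0.53 to -0.026, adjusted p = 0.0803, limma). Without WT library C it was -0.40 (adjusted p = 0.000681), beside 4454 of 16125 genes called lower. With the GC trend removed as well it was -0.21 (adjusted p = 0.0183), beside 2785 genes called lower. With the combined trend removed it was 0.050 (adjusted p = 0.827) with all libraries and -0.070 (adjusted p = 0.290) without WT library C, and genes of like GC content had a median of -0.21.

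Tbx20 had 1051, 1023 and 1072 normalized reads in mKO RGCs and 1146, 1164 and 503 in WT RGCs, and Tbr1 had 594, 590.1 and 573 in mKO RGCs and 672, 626 and 373 in WT RGCs. For both genes the mKO libraries lay between WT library C and WT libraries A and B. The log2 fold changes were 0.26 ± 0.30 SE for Tbx20 (95% CI -0.46 to 0.98, adjusted p = 0.534) and 0.12 ± 0.21 SE for Tbr1 (95% CI -0.38 to 0.61, adjusted p = 0.684). Without WT library C both turned negative, to -0.14 for Tbx20 (adjusted p = 0.0298) and -0.15 for Tbr1 (adjusted p = 0.0613). Tbx20 had a larger difference without that library once the GC trend was removed (-0.46, adjusted p = 0.000478) or the combined trend (-0.52, adjusted p = 0.000844).

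Satb1 had the most reads of the 7 genes in RGCs, with 2735, 2845 and 2965 normalized reads in mKO and 2962, 3060.3 and 2662 in WT. The libraries of the genotypes overlapped, and the log2 fold change was -0.021 ± 0.068 SE with a 95% CI of -0.18 to 0.14 (adjusted p = 0.826, limma). Genes of like GC content had a median of 0.21, and the difference was -0.22 with the GC trend removed (adjusted p = 0.0799) and -0.24 with the combined trend removed (adjusted p = 0.0942). Without WT library C as well, these were -0.29 (adjusted p = 0.00488) and -0.30 (adjusted p = 0.00509).

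**Figure D2:**
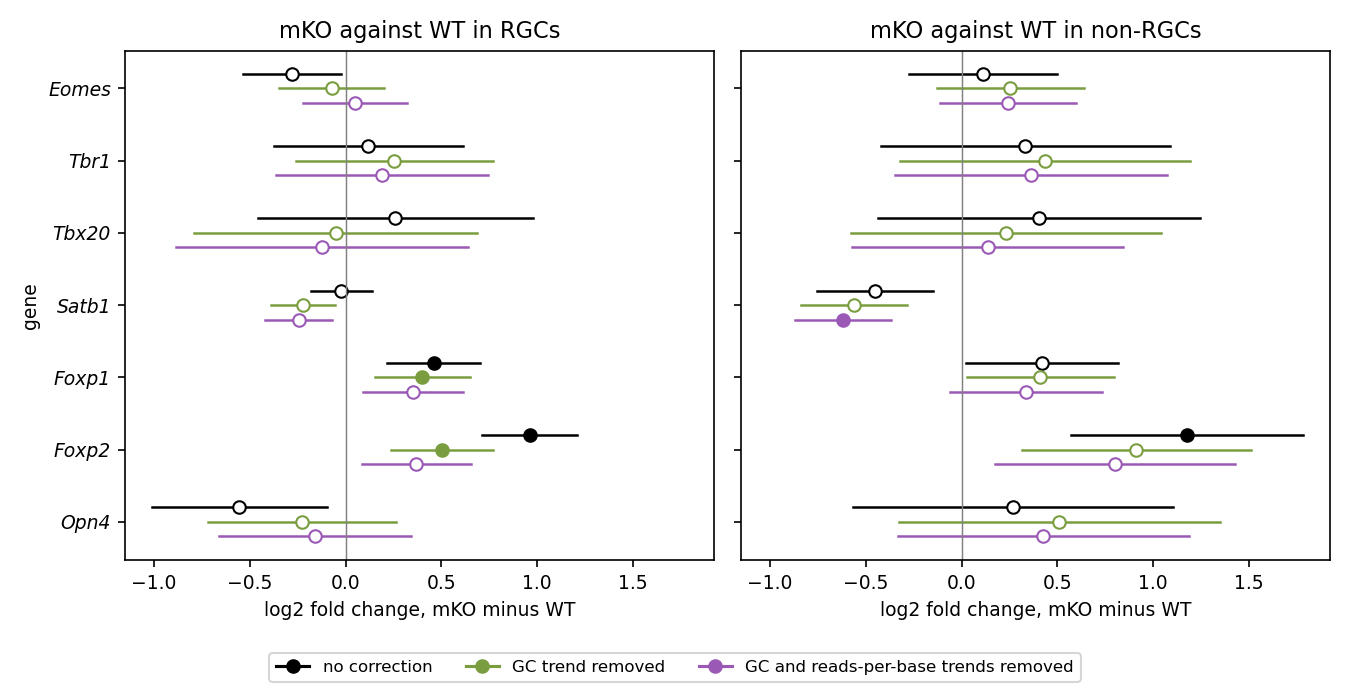
Log2 fold change (mKO minus WT) of each gene in RGCs (left) and non-RGCs (right) as limma estimates, with 95% confidence intervals as lines. Black is without correction, green with the GC trend of each library removed, purple with the combined trend in GC content and read density removed, and filled points have an adjusted p-value under 0.05. In RGCs Foxp2 is at 0.96, 0.50 and 0.37 and Opn4 at -0.55, -0.23 and -0.16 under these settings.

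WT RGC library C was lower than the mean of WT libraries A and B for all 7 genes, while it was higher for Atoh7 (353%), a gene of progenitors and newborn RGCs, and for Ezh2 (140%). It held 43.5% of that mean for Tbx20, 57.5% for Tbr1, 60.3% for Opn4, 77.6% for Foxp2, 77.7% for Eomes, 80.6% for Foxp1 and 88.4% for Satb1. The 7 genes were thus lower in this library to unequal degrees. The sum of 10 photoreceptor markers was 11661 normalized reads in it against 8191 and 8334 in WT libraries A and B, and that of the 12 general RGC markers 33301 against 35314 and 36478.

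**Figure D3:**
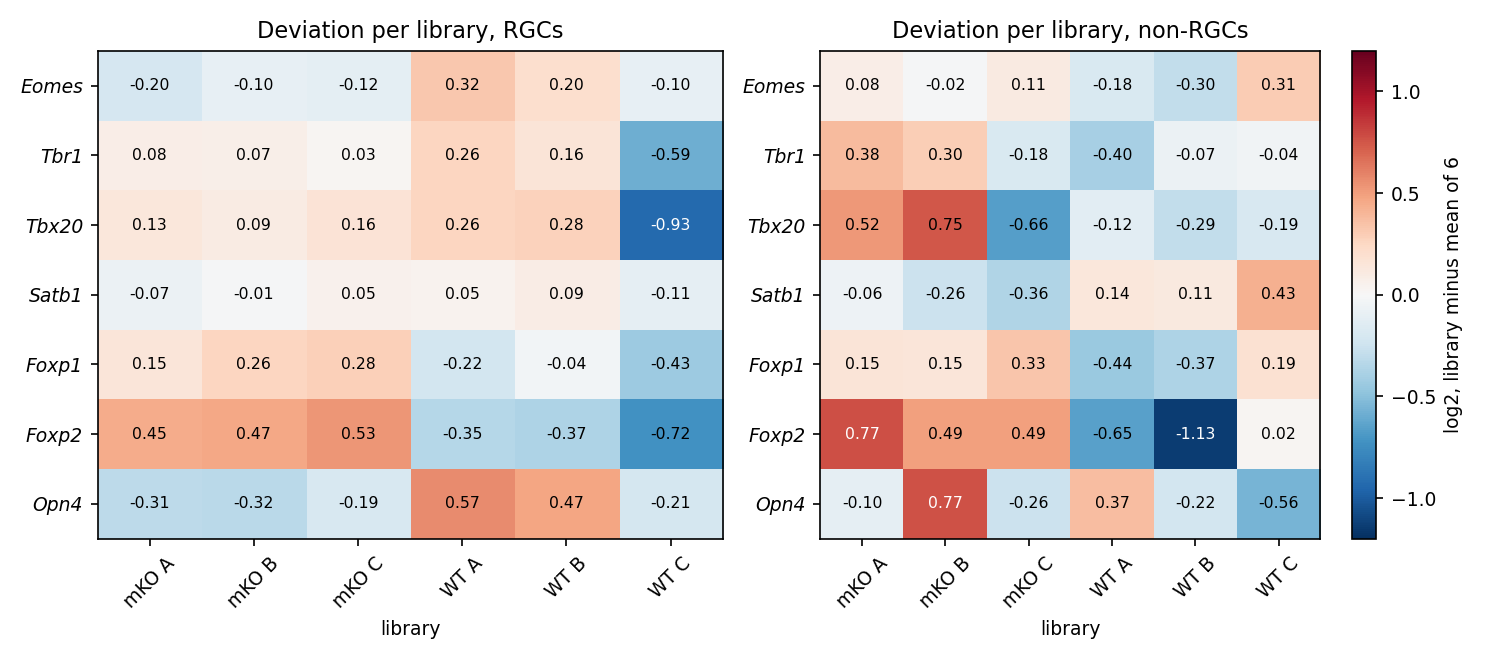
Deviation of each library from the mean of the 6 libraries of its fraction, in log2 normalized reads, for the 7 genes (rows) and the mKO and WT libraries A to C (columns) in RGCs (left) and non-RGCs (right). Red is above and blue below that mean. WT RGC library C is at -0.93 for Tbx20 and -0.59 for Tbr1, and Foxp2 is positive in all 6 mKO libraries.

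In non-RGCs, 1 of the 7 genes was called between the genotypes, Foxp2, which was higher in mKO, beside 10.6% of the 15326 genes tested, 4.18% being higher and 6.43% lower (641 and 985 genes, or 1346 and 448 when scaled by library totals). The median log2 fold change was 0.33 over the 7 genes and -0.026 over all genes tested. Foxp2 was also past a fold change of 1.5, beside 3.88% of all genes called higher by both limits and 8.1% called in either direction. With the GC trend removed none of the 7 was called, beside 1.8% of all genes (1.06% higher and 0.744% lower), and with the combined trend removed 1 was called, Satb1, beside 1.85% of all genes.

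Foxp2 had 446, 367 and 367 normalized reads in mKO non-RGCs and 165, 118 and 265 in WT non-RGCs. All mKO libraries lay above all WT libraries, as for 17.5% of all genes tested, while 36.7% did not overlap in either direction. The difference was 2.26-fold (log2 fold change 1.18 ± 0.27 SE, adjusted p = 0.0277, limma). It was 0.91 with the GC trend removed (adjusted p = 0.0912) and 0.80 with the combined trend removed (adjusted p = 0.138), and the call was lost without WT library A or B or any mKO library (adjusted p from 0.0512 to 0.1003). The general RGC markers were also higher in mKO non-RGCs, as given above, and their part in the level of Foxp2 was not tested.

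Satb1 was the other gene whose libraries did not overlap in non-RGCs, with 1587, 1382 and 1284 normalized reads in mKO and 1815, 1788 and 2218 in WT. Every mKO library was below every WT library, as for 19.2% of all genes tested. The log2 fold change was -0.45 ± 0.13 SE (95% CI -0.75 to -0.15, adjusted p = 0.0598, limma), just outside the threshold. It was -0.56 with the GC trend removed (adjusted p = 0.0543) and -0.62 with the combined trend removed (adjusted p = 0.0378), and it was also called without mKO library A (adjusted p = 0.0471). In the same libraries 10 amacrine cell markers summed to 14188 to 16682 normalized reads in mKO and 19937 to 20790 in WT, with 3 of the 10 called lower. Other classes were lower in mKO as well, with 10672 to 12615 against 14493 to 16949 for 10 photoreceptor markers (5 called lower), 20814 to 25858 against 27782 to 34372 for 10 progenitor markers (1 called lower) and 5271 to 6019 against 6845 to 7122 for 8 endothelial and pericyte markers (none called). Over all genes 6.43% were called lower. With the GC trend removed 1 amacrine and 1 photoreceptor marker were called lower, beside 0.744% of all genes, and no progenitor, endothelial or pericyte marker. With the combined trend removed no marker of these classes was called lower, beside 0.894% of all genes. The sums of 8 astrocyte and Mueller glia markers overlapped, at 5605 to 7103 in mKO and 6786 to 7923 in WT. Of the 7 tested 1 was called lower, none with the GC trend removed and 1 with the combined trend removed. The part of these cell classes in the level of Satb1 was not tested.

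Foxp1 had 934, 932 and 1058 normalized reads in mKO non-RGCs and 617, 648 and 956 in WT non-RGCs, and Eomes had 650.4, 608 and 664 in mKO and 543, 501 and 763 in WT. WT library C lay within the mKO range for Foxp1 and above it for Eomes. Neither was called, with log2 fold changes of 0.42 ± 0.18 SE for Foxp1 (adjusted p = 0.145) and 0.11 ± 0.17 SE for Eomes (adjusted p = 0.694). Without WT library C Foxp1 was called (adjusted p = 0.0267).

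Tbr1, Tbx20 and Opn4 had few reads in non-RGCs. Over the 6 libraries they ran from 14.4 to 25.4 normalized reads for Tbr1, 28.2 to 76.7 for Tbx20 and 25.0 to 64.3 for Opn4. The log2 fold changes had 95% CIs of -0.42 to 1.09, -0.43 to 1.24 and -0.57 to 1.11 and none of these genes was called. Tbx20 is also a factor of heart muscle, and 6 heart muscle markers summed to 316 to 484 normalized reads in mKO non-RGCs and 129 to 218 in WT non-RGCs. In mKO non-RGC libraries A, B and C these sums were 450, 316 and 484, and Tbx20 was at 65.5, 76.7 and 28.2 normalized reads. The part of heart muscle in the level of Tbx20 was not tested.

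Whether the effect of the genotype differed between the fractions was tested over the 12 libraries together. None of the 7 genes passed, and 0.0969% of the 16517 genes tested did (16 genes), against 9.66% at an unadjusted p-value under 0.05. The difference of the log2 fold changes (RGCs minus non-RGCs) was 0.43 ± 0.15 SE for Satb1 (unadjusted p = 0.0132 and adjusted p = 0.461, limma), the only one of the 7 with an unadjusted p-value under 0.05. It was -0.82 ± 0.42 SE for Opn4 (adjusted p = 0.548) and -0.39 ± 0.21 SE for Eomes (adjusted p = 0.559). For Foxp2 it was -0.22 with a 95% CI of -0.90 to 0.47, and for Foxp1 0.037 with a 95% CI of -0.43 to 0.50.

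The levels in the Thy-1 fraction and the rest were set side by side as RPM, reads scaled to a common library total, with no test because the 2 tables were normalized separately. In WT retinas Tbr1 was at 30.2 to 53.8 RPM in RGCs and 1.32 to 1.66 in non-RGCs, a ratio of means of 29.0. The ratio was 25.5 for Opn4 (56.7 to 96.0 against 2.16 to 4.44 RPM) and 21.3 for Tbx20 (40.7 to 91.9 against 3.32 to 3.78 RPM). These 3 genes were thus at least 10 times as high in RGCs, as were 3.74% of all genes with at least 10 normalized reads in either fraction.

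Foxp2 (ratio 3.28), Eomes (2.54), Foxp1 (1.41) and Satb1 (1.34) were less concentrated in WT RGCs. For Foxp1 the fractions overlapped, at 80.8 to 104 RPM in RGCs and 56.3 to 82.6 in non-RGCs. For the other 6 genes every RGC library was above every non-RGC library, as for 27.3% of all genes. Over the 12 general RGC markers the ratio in WT ran from 1.38 to 407 (Thy1, the antigen of the beads) with a median of 10.4. The 7 genes thus split into 3 above that median and 4 below it.

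In mKO retinas the ratios were 22.9 for Tbr1, 15.9 for Tbx20, 13.3 for Opn4, 2.83 for Foxp2, 1.88 for Eomes, 1.74 for Satb1 and 1.41 for Foxp1. No gene overlapped between the fractions, as for 29.3% of all genes, and the same 3 genes were at least 10 times as high in RGCs, as were 3.54% of all genes. The ratio was lower than in WT for Tbr1, Tbx20, Opn4, Foxp2 and Eomes, higher for Satb1 and the same to 3 digits for Foxp1. Over the general RGC markers the median ratio was 2.82 in mKO, against 10.4 in WT, and Thy1 was at 6.78 to 9.24 RPM in mKO non-RGCs and 0.175 to 0.811 in WT non-RGCs. The part of this difference between the fractions in the levels of the 7 genes was not tested.

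**Figure D4:**
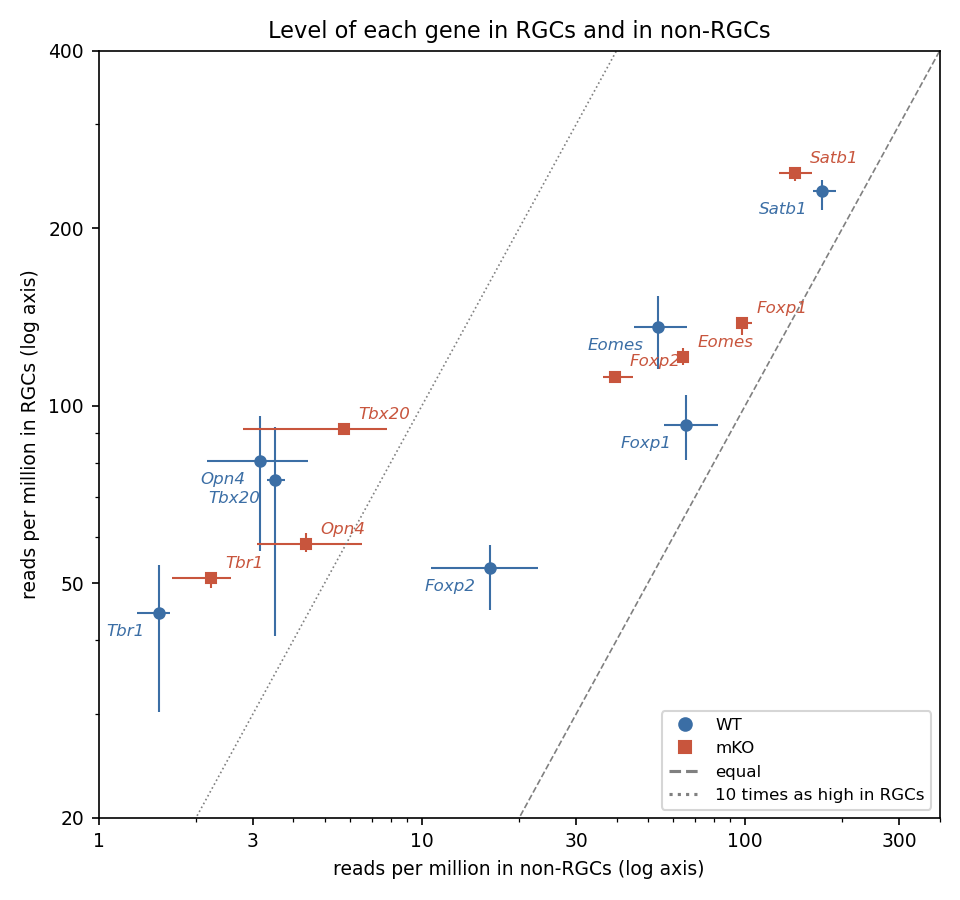
Mean RPM of each gene in non-RGCs (horizontal, log axis) and RGCs (vertical, log axis), blue for WT and red for mKO, with lines from the lowest to the highest of 3 libraries. The dashed line marks equal levels and the dotted line levels 10 times as high in RGCs. Tbr1, Tbx20 and Opn4 lie above the dotted line and Foxp1 and Satb1 near the dashed one.

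Across the 12 libraries, each centred on the mean of its fraction, the closest pairs among the 7 genes were Foxp1 with Foxp2 (Pearson r = 0.91) and Tbr1 with Tbx20 (r = 0.88). Foxp1 and Foxp2 are paralogous forkhead genes, and the paralogous T-box genes Eomes and Tbr1 had r = 0.37. Opn4 was closest to Tbx20 (r = 0.53), with r = 0.20 to Eomes. These values describe 12 libraries that share genotype, depth and base composition, and the lowest RGC library of both Tbr1 and Tbx20 is WT library C.

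The genes most like each of the 7 were listed from 11748 genes whose mean was at least 50 normalized reads in every group. Foxp1 was most like Ccdc47 (r = 0.97), Glrx2 (0.96) and Slc25a46 (0.96), and Foxp2 most like Slc25a46 (0.96), Mblac2 (0.95) and Jakmip2 (0.95). Slc25a46, a mitochondrial carrier, was the only gene on more than 1 of these lists. Tbr1 was most like Enox1 (0.95), Mtmr7 (0.95) and Cxadr (0.93), and Tbx20 most like Gpd2 (0.94), Gpr173 (0.92) and Plcb4 (0.91). Satb1 was most like Med13l (0.99), Hipk2 (0.98) and Fbxl18 (0.98), Opn4 most like Ablim3 (0.91), Car11 (0.91) and Capn5 (0.89), and Eomes most like Necap1 (0.90), Lynx1 (0.90) and Fgf13 (0.89).

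Genes through which melanopsin acts were examined next. Melanopsin couples to G proteins of the Gq class, which activate phospholipase C beta 4 (Plcb4) and open the channels Trpc6 and Trpc7. In RGCs 3 of the 17 genes of this list were called lower in mKO and none higher, and in non-RGCs 2 of 15 tested were called higher and 1 lower. Over all genes 21.2% were called lower in RGCs, and 4.18% higher and 6.43% lower in non-RGCs. With the GC trend or the combined trend removed, 1 gene of the list was called lower in RGCs, beside 9.31% or 4.74% of all genes. In non-RGCs 1 was then called higher, beside 1.06% or 0.959%, and 1 lower, beside 0.744% or 0.894%. The median log2 fold changes were -0.036 in RGCs and -0.17 in non-RGCs.

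Gnaq, a Gq subunit, was at 3082 to 3261 normalized reads in mKO RGCs and 3111 to 3271 in WT, with a 95% CI of the log2 fold change of -0.12 to 0.12 (adjusted p = 0.984, limma). Gna11, the related subunit, fell by 0.40 ± 0.046 SE on the log2 scale in mKO RGCs (adjusted p = 0.00108) and was not called with the GC trend removed (adjusted p = 0.995). Gna14 had 53.6 to 57.6 normalized reads in mKO RGCs and 39.7 to 64.1 in WT (log2 fold change 0.25 ± 0.23 SE, adjusted p = 0.441). Of the G protein genes only Gna11 was therefore called, and that call was not seen once the GC trend was removed.

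Plcb4 was at 1789 to 1985 normalized reads in mKO RGCs and 1149.5 to 1920.4 in WT (log2 fold change 0.23 ± 0.19 SE, adjusted p = 0.355). Trpc6 had 90.3 to 101 in mKO RGCs and 40.8 to 73.0 in WT (0.69 ± 0.25 SE, adjusted p = 0.0633), and Trpc7 had 79.3 to 94.1 against 68.9 to 123 (-0.23 ± 0.25 SE, adjusted p = 0.506). For Trpc6 all mKO libraries lay above all WT libraries, as for 24.8% of all genes tested in RGCs, but none of these genes was called. In non-RGCs Trpc6 was under the filter, and Plcb4 (adjusted p = 0.769) and Trpc7 (adjusted p = 0.265) were not called.

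The other calls of this list in RGCs were Adrbk1 and Arrb2, which encode a receptor kinase and a beta-arrestin that turn such receptors off. Adrbk1 fell by 0.42 (adjusted p = 0.00108) and Arrb2 by 0.47 (adjusted p = 0.00793) on the log2 scale, and neither was called with the GC trend removed (0.022, adjusted p = 0.802, and -0.14, adjusted p = 0.262).

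In non-RGCs Adcyap1, the neuropeptide PACAP of the melanopsin cells, rose from 1.94 to 6.32 normalized reads in WT to 22.6 to 30.1 in mKO (log2 fold change 2.54 ± 0.45 SE, adjusted p = 0.0131) and was still called with the GC trend removed (adjusted p = 0.0407). Nmb, a neuropeptide, also rose (1.00, adjusted p = 0.0466) but was not called with the GC trend removed (adjusted p = 0.0558). Adcyap1 in RGCs was at 514 to 576 normalized reads in mKO and 432 to 651 in WT and was not called (adjusted p = 0.870).

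Of 15 other transcription factors of RGC subtypes, 6 were called lower and none higher in mKO RGCs, beside 21.2% and 16.3% of all genes, with a median log2 fold change of -0.24. With the GC trend removed 2 were called lower, beside 9.31% of all genes. Pou4f1 (Brn3a), a POU factor that most RGCs share, fell from 4067 to 4334 normalized reads in WT to 2581 to 2777 in mKO (log2 fold change -0.63 ± 0.055 SE, adjusted p = 0.000651), and was still called with the combined trend removed (-0.34, adjusted p = 0.0199). On the log2 scale Irx4 fell by 0.59 (adjusted p = 0.00395), Neurod2 by 0.50 (adjusted p = 0.0184), Pou4f2 (Brn3b) by 0.44 (adjusted p = 0.00833), Isl2 by 0.38 (adjusted p = 0.0123) and Lmo2 by 0.33 (adjusted p = 0.0216). None of these 5 was called with the GC trend removed, where Meis2 was called lower beside Pou4f1 (-0.39, adjusted p = 0.0112). The general RGC markers were lower in the same libraries, as given above.

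In non-RGCs 4 of these 15 genes were called higher in mKO and none lower, beside 4.18% and 6.43% of all genes, with a median of 0.016. Irx4 rose from 5.81 to 14.6 normalized reads in WT to 47.0 to 79.6 in mKO (adjusted p = 0.0114), and Pou4f2 from 35.8 to 71.9 to 129.9 to 199 (adjusted p = 0.0116). Pou4f3 rose from 0.968 to 19.8 to 45.2 to 56.3 (adjusted p = 0.0293) and Pou4f1 from 42.6 to 136 to 166 to 206 (adjusted p = 0.0376). Irx4 and Pou4f2 were still called with the GC trend removed (adjusted p = 0.0189 and adjusted p = 0.0264). The general RGC markers, of which Pou4f1 and Pou4f2 are members, were higher in these libraries as well.

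Of the surface and peptide markers of RGC subtypes, 1 of 12 tested was called in RGCs, beside 37.5% of all genes. It was Mmp17, which fell by 0.78 ± 0.13 SE on the log2 scale (adjusted p = 0.00418) and was not called with the GC trend removed (adjusted p = 0.0863). In non-RGCs 1 of 10 was called, beside 10.6% of all genes. It was Spp1 (osteopontin), which fell from 50.05 to 61.9 normalized reads in WT to 4.24 to 10.5 in mKO (adjusted p = 0.00603) and stayed called with either trend removed (adjusted p = 0.0109 and adjusted p = 0.00803). The medians over the list were 0.14 in RGCs and -0.33 in non-RGCs. Spp1 in RGCs was not called, at 38.6 to 106 normalized reads in mKO and 66.9 to 107 in WT (adjusted p = 0.491).

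Cntn5, an adhesion protein of Satb1-positive direction-selective RGCs, had 474 to 547 normalized reads in mKO RGCs and 275 to 456 in WT. All mKO libraries lay above all WT libraries, as for 24.8% of all genes tested, but Cntn5 was not called (0.42 ± 0.20 SE, adjusted p = 0.132). Jam2, which marks the J-type RGCs, was at 1299 to 1349 in mKO and 1299 to 1319.9 in WT (adjusted p = 0.894). Jam2 was called lower with the GC trend removed (-0.17, adjusted p = 0.0488), beside 9.31% of all genes, but not with the combined trend removed. Cdh8 and Sorcs3, adhesion and sorting proteins linked with Tbr1, were not called in RGCs. Cdh8 had 537 to 652 normalized reads in mKO and 372 to 600.3 in WT (adjusted p = 0.421), and Sorcs3 had 155 to 213 and 129.5 to 304 (adjusted p = 0.562).

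Among the paralogues of the 7 genes, calls went in both directions. Of 14 further T-box genes, 8 passed the filter in RGCs, where Mga rose and Tbx2 and Tbx3 fell, beside 16.3% of all genes called higher and 21.2% lower. Mga, which joins a T-box to a Max-binding domain, had 2410.3 to 2908 normalized reads in mKO and 1453 to 1885 in WT (0.73 ± 0.12 SE, adjusted p = 0.00347) and was not called in non-RGCs (adjusted p = 0.811). Tbx2 and Tbx3 are factors of the dorsal retina. Tbx2 fell by 0.84 in RGCs (adjusted p = 0.000866) and by 0.82 in non-RGCs (adjusted p = 0.0154) on the log2 scale, and Tbx3 by 0.33 (adjusted p = 0.0351) and 0.53 (adjusted p = 0.0234). With the GC trend removed neither was called in either fraction, and Mga in RGCs was at 0.43 (adjusted p = 0.0484). With the combined trend removed Mga was not called (0.42, adjusted p = 0.0768).

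Foxp4, a relative of Foxp1 and Foxp2, was called lower in mKO in both fractions. It fell from 1423 to 1548 normalized reads in WT RGCs to 825 to 909 in mKO RGCs (log2 fold change -0.75 ± 0.064 SE, adjusted p = 0.000651) and by 0.98 ± 0.14 SE on the log2 scale in non-RGCs (adjusted p = 0.00709). With the GC trend removed it was at -0.089 (adjusted p = 0.336) and -0.42 (adjusted p = 0.123). Foxp3, a factor of T cells, was at 18.4 to 31.1 normalized reads in mKO RGCs and 11.7 to 15.2 in WT RGCs (adjusted p = 0.0934). The 8 lymphoid markers summed to 84 to 161 normalized reads in mKO RGCs and 51 to 99 in WT RGCs.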

How the data were processed

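RNA was measured in RGCs and non-RGCs of postnatal day 0 mKO and WT mice, in 3 libraries a group, grouped by their labels. The authors aligned single-end reads of poly-A libraries to mm10 with STAR 2.3.1z4 (per the submitters' processing notes) and used featureCounts for genes and DESeq for normalization. The names of the deposited tables say that duplicates were removed. The deposited signal columns are the authors' group means of reads divided by size factors. The deposited fold change, log2 fold change, p-value and adjusted p-value columns hold the authors' comparisons of mKO and WT and were not used.

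The reads and size factor of each library were recovered from the digits of the means by lattice reduction, for 100% of genes with reads. In WT non-RGCs 5 genes allowed several combinations. limma 3.58.1 (R 4.3.3) with a mean-variance trend was run on log2(reads / size factor + 1), which understates changes of low genes, where either genotype averaged 10 or more. Adjusted p-values are Benjamini-Hochberg over all genes tested. On simulated reads with 200 genes changed 2-fold, 200 were recovered in RGCs (17 false calls among 15857 genes) and in non-RGCs (12 among 15120), and 190 for the difference between fractions (5 among 16293). With a simulated GC trend there were 4195 false calls in RGCs, and 13 once it was removed. The simulated libraries all shared the same extra spread, and none stood apart as WT RGC library C did. Their GC trend was a smooth function of the same exon GC content that the correction uses. These counts therefore do not show how many changes would be found, or trends removed, in the real libraries. GC trends were lowess fits (share 0.3) on exon GC content, and combined trends were medians over 300 neighbouring genes. No test over 3 libraries against 3 by permutation can reach the threshold. Nothing says whether extractions came from separate animals, so p-values measure the spread between these samples. Positions are from GENCODE M21 and promoters from RefSeq.

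The 7 genes and all lists were chosen with earlier results of these data known. Named are the 7, Ezh2, genes of 5 related lists called in either fraction, 11 genes of these lists whatever their value, and the 3 genes most correlated with each of the 7. Some genes of the lists that this rule would name are not reported here. Foxp3, Meis2, Thy1 and Atoh7 were named after their values were seen. Alternatives were the pseudocount, filter, scaling, trends, limma without a trend, a fold limit and leaving out each library. Removing a trend together with WT RGC library C, a fold limit on adjusted p-values and the longest transcript were added after the data were seen.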

Additional observations from a re-analysis of the deposited data

Results flagged for a closer look

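The effect of the genotype differed between RGCs and non-RGCs for 3 genes of the related lists in limma over the 12 libraries. Over all 16517 genes tested 16 passed (0.0969%). The difference of the log2 fold changes (RGCs minus non-RGCs) was -2.95 for Irx4, -2.58 for Adcyap1 and -2.16 for Pou4f2. Irx4 and Adcyap1 had few reads in WT non-RGCs, as given above. Pou4f1, at -2.17, did not pass that test, but every mKO library was below every WT library in RGCs, as for 28.2% of all genes. In non-RGCs every mKO library was above every WT library for Pou4f1, as for 17.5% of all genes. General RGC markers were higher in the mKO non-RGC libraries, and their part in these differences was not tested.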

How the results depend on the processing

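No paired analysis was possible because the deposited columns are group means and the libraries recovered from them carry no replicate number. In RGCs 6027 genes were called, but 2349 with the GC trend removed and 1170 with the combined trend in GC content and read density removed. At an unadjusted p-value under 0.05 with a 1.5-fold change 2615 were called, and 2158 at an adjusted one with that fold. Without each library in turn 3770 to 8184 were called (3822 without mKO library A, 3770 without mKO library C, 8184 without WT library C). With the combined trend removed and without WT library C 3873 were called. In non-RGCs 1626 were called, but 276 and 284 with the GC or combined trend removed, 913 without limma's variance trend, and 141 to 1614 without each library (819 without WT library A, 387 without WT library B, 141 without mKO library B). The difference between fractions was called for 16 genes and for 7 to 237 without each library, with 7 without mKO RGC library A and 237 without mKO non-RGC library A. Scaling by library totals moved the median log2 fold change to 0.12 in RGCs, with 3857 genes higher and 2238 lower against 2622 and 3405, and to 0.15 in non-RGCs, with 1346 and 448 against 641 and 985. Foxp1 was then called in non-RGCs (0.59, adjusted p = 0.0476). Without limma's variance trend Foxp2 was not called in non-RGCs (adjusted p = 0.0629).

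Signs turned for Satb1 in RGCs with library totals (0.10), Tbx20 in RGCs with the GC trend (-0.052) or the combined trend removed (-0.12), Eomes in RGCs with the combined trend removed (0.050) and the difference between fractions for Foxp1 with the GC trend removed (-0.013). Without each library in turn, log2 fold changes in RGCs ran from -0.15 to 0.28 for Tbr1, -0.14 to 0.46 for Tbx20 and -0.081 to 0.020 for Satb1, in non-RGCs from -0.0081 to 0.29 for Eomes and -0.046 to 0.52 for Opn4, and the differences between fractions from -0.58 to 0.13 for Tbx20, -0.16 to 0.15 for Foxp1 and -0.52 to 0.058 for Foxp2. With the GC or combined trend removed and without WT RGC library C, Tbr1 was at -0.023 and -0.093 and Tbx20 at -0.46 and -0.52. The causes were not tested. A pseudocount of 0.5, no filter, a filter at a mean of 50 and recomputed size factors changed no call of the 7 genes. At the filter of 50, however, Tbr1 and Opn4 were not tested in non-RGCs. Tbr1, Tbx20 and Opn4 had at most 76.7 normalized reads in any non-RGC library.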
